A study of Homo sapiens with 16 samples.

Results

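The 5 pro-survival members of the BCL2 family, MCL1, BCL2, BCL2L1 (which encodes BCL-XL), BCL2L2 (BCL-W) and BCL2A1 (BFL-1), were taken by gene symbol from a table of 23459 genes, and all 5 were found there. These proteins sit on the outer mitochondrial membrane and hold BAX, BAK and the BH3-only proteins, which would otherwise permeabilise that membrane and start the caspase cascade. Their pro-survival work is shared but their upkeep is not: MCL1 protein is short-lived and is replaced by continued transcription and translation, while BCL-XL and BCL2 are more stable. Malignant plasma cells are known for their reliance on MCL1, with a minority relying more on BCL2 or BCL-XL.

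RNA-seq covered 16 libraries from human myeloma cells: the lines MM.1s, KMS18 and RPMI8226, none with added Mcl1, and an RPMI8226 derivative overexpressing Mcl1 (here the Mcl1 line). These 4 backgrounds were transfected with an empty pLK0.1 vector (Vec) or with a short hairpin RNA (shRNA) aimed at CD28, at CD86 or, as a control, at Gapdh, with 1 library for each combination. CD28 is a receptor best known as the T cell costimulator, and CD86 is one of its ligands. The 3 parental lines served as replicates for each shRNA, while the 4 libraries of a line are 1 cell line under 4 vectors. The Mcl1 line is a single derived line. Its construct is not described in the labels, so RNA from the construct and from the endogenous gene cannot be told apart. In bulk RNA, fewer cells with a transcript and less of it per cell cannot be told apart either.

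The libraries held 3914513 to 5900955 reads in genes, and the CD28 shRNA library was the shallowest of each background. CD28 stood at 65.1% to 79.3% of its Vec level under its own shRNA over the 4 backgrounds, CD86 at 44.1% to 76.3%, and GAPDH at 10.7% to 53.0%. Over the parental lines the fall of CD28 under its own shRNA passed the test used below, and that of CD86 did not. RPMI8226 was the background with the weakest CD28 and CD86 knockdown. Of the 8 plasma cell markers, 8 averaged at least 1 FPKM (fragments per kilobase of exon, relative to each library's read total) in each parental line and 7 in the Mcl1 line. The stromal markers summed to at most 0.841 FPKM in any library. Summed B cell markers reached 15.6 FPKM in RPMI8226, summed T cell markers 7.68 FPKM in KMS18, and summed myeloid markers 3.54 FPKM in the Mcl1 line.

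MCL1 and BCL2L1 were the abundant members, BCL2 came next, BCL2L2 was low and BCL2A1 was near 0. FPKM is scaled to exon length, so these levels can be set side by side. MCL1 ranked above 93.0% to 98.0% of the genes with reads in each background by mean FPKM, and BCL2L1 above 92.9% to 98.3%. BCL2 ranked above 74.1% to 80.8%.

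MCL1, on chromosome 1, had 115, 133, 120 and 145 FPKM in MM.1s under Vec, Gapdh, CD28 and CD86 shRNA. In the same order it had 82.0, 85.7, 86.0 and 119 FPKM in KMS18. RPMI8226 gave 51.2, 54.5, 62.7 and 49.6 FPKM. These 3 lines kept their order under each vector, although the highest KMS18 library passed the lowest MM.1s library. The Mcl1 line gave 127, 131, 168 and 173 FPKM, every one above all parental RPMI8226 libraries and overlapping the range of MM.1s.

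BCL2L1, on chromosome 20, stood in another order. MM.1s had 155, 185, 89.0 and 188 FPKM, RPMI8226 had 84.2, 88.6, 61.9 and 92.4 FPKM, and KMS18 had 59.8, 58.9, 45.4 and 63.9 FPKM. The Mcl1 line gave 89.6, 91.0, 49.8 and 95.7 FPKM, close to its parent. In each background the CD28 shRNA library was the lowest of the 4.

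BCL2, on chromosome 18, had 15.7, 14.8, 17.3 and 12.2 FPKM in MM.1s and 15.2, 16.2, 19.7 and 11.4 FPKM in RPMI8226. KMS18 was higher, at 25.9, 22.7, 22.6 and 17.1 FPKM. The Mcl1 line gave 19.0, 17.7, 23.7 and 10.8 FPKM. In each background the CD86 shRNA library was the lowest of the 4.

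BCL2L2, on chromosome 14, separated MM.1s from the other backgrounds. RPMI8226 had 3.94 to 4.27 FPKM, the Mcl1 line 3.10 to 4.21 FPKM and KMS18 1.72 to 2.64 FPKM. In MM.1s it had 0 to 2 reads a library, at most 0.0946 FPKM. By counting error only, a count of 0 allows up to 3 reads, or 0.118 to 0.165 FPKM by library. That limit takes each read as an independent count and would be higher if both mates of a pair were counted. The read-through neighbour of BCL2L2, BCL2L2-PABPN1, shares its exons and was listed at 0 in every library. Whether reads from its transcript were counted under BCL2L2 was not tested.

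BCL2A1 had 0 or 2 reads in each of the 16 libraries, at most 0.434 FPKM, and 0 reads in the 4 KMS18 libraries. All of these lie under what 3 reads would give, 0.444 to 0.678 FPKM by library. That limit, too, would be higher if both mates were counted. BCL2A1 did not reach the mean of 1 FPKM set for testing, so 4 of the 5 genes were tested.

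**Figure D1:**
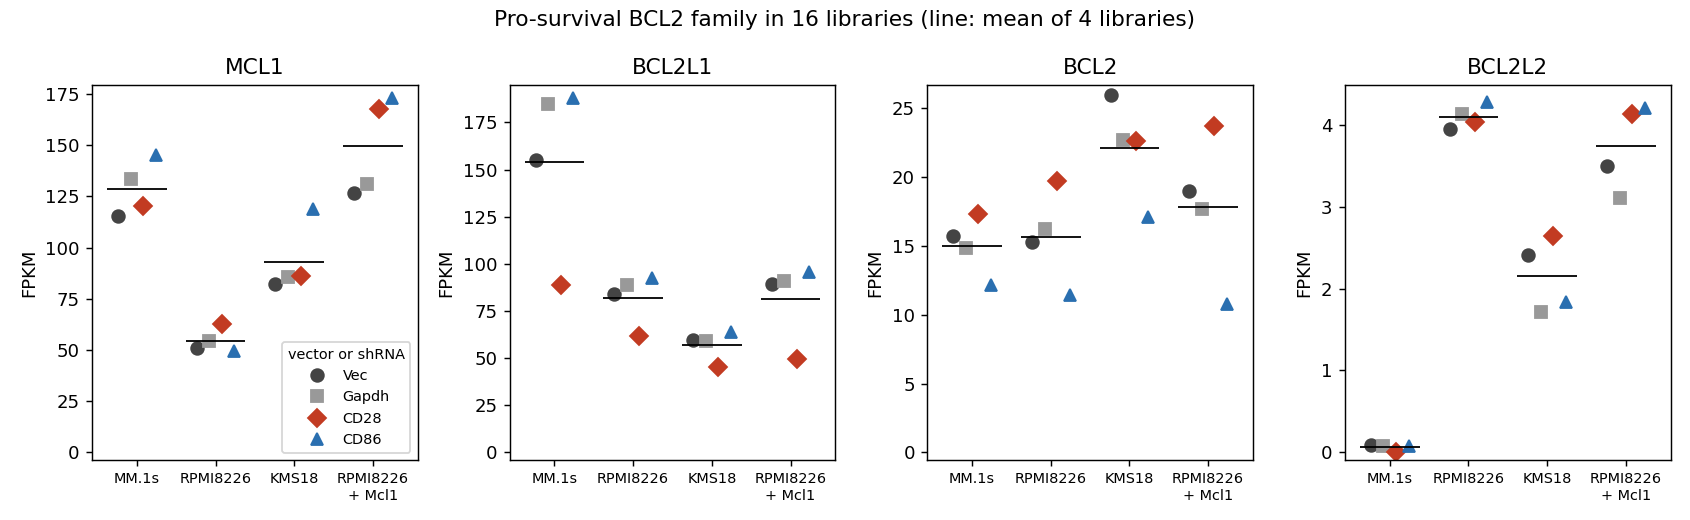
FPKM (linear axis from 0, a separate scale in each panel) of MCL1, BCL2L1, BCL2 and BCL2L2 in the 16 libraries by background, with 1 symbol for each vector or shRNA and a line at the mean of the 4 libraries. The CD28 shRNA diamonds are the lowest BCL2L1 points and the CD86 shRNA triangles the lowest BCL2 points in every background, and BCL2L2 lies at 0 to 0.0946 FPKM in MM.1s.

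The first comparison asked how the 3 parental lines differ. limma was fitted to log2(FPKM + 1), with the shRNA as a term, over all genes whose mean reached 1 FPKM, and its p-values were adjusted by the Benjamini-Hochberg method with a threshold of 0.05. A difference on this scale understates the change of low genes. The lines differed at most genes: 65.3% of tested genes passed between KMS18 and MM.1s, 70.3% between KMS18 and RPMI8226, and 69.1% between MM.1s and RPMI8226. The p-values measure the spread between libraries of single lines. Against that background, 4, 4 and 3 of the 4 tested members passed in these comparisons, which sets them little apart from other genes.

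MCL1 was higher in MM.1s than in RPMI8226 by 1.22 on the log2 scale (SE 0.11, limma adjusted p = 1.99e-06), and KMS18 lay between them. KMS18 was 0.75 above RPMI8226 (SE 0.11, limma adjusted p = 8.71e-05) and differed from MM.1s by -0.47 (SE 0.11, limma adjusted p = 0.00284). BCL2L1 was highest in MM.1s, 0.86 above RPMI8226 (limma adjusted p = 1.47e-05), and lowest in KMS18, which differed from RPMI8226 by -0.51 (limma adjusted p = 0.000774). KMS18 therefore ranked above RPMI8226 for MCL1 and below it for BCL2L1.

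BCL2 was higher in KMS18 than in MM.1s by 0.52 (SE 0.09, limma adjusted p = 0.000463) and than in RPMI8226 by 0.48 (limma adjusted p = 0.000748). MM.1s and RPMI8226 did not differ beyond their spread (-0.04, SE 0.09, limma adjusted p = 0.691). BCL2L2 was lower in MM.1s than in RPMI8226 by -2.26 (limma adjusted p = 3.20e-08), and KMS18 lay between them. It averaged 0.0644 FPKM in MM.1s, 4.10 in RPMI8226 and 2.15 in KMS18, so it met the filter for testing through the other lines. Its contrasts with MM.1s are therefore statements of detection, and the counts of members above include them. BIRC2 and BIRC3, neighbouring genes for inhibitors of apoptosis, were both at 0 in the 4 KMS18 libraries. BIRC2 averaged 13.9 FPKM in MM.1s and 13.7 FPKM in RPMI8226, and BIRC3 29.7 and 1.20 FPKM. Pathway lists covered pro-survival relatives, effectors and BH3-only genes, MCL1 protein turnover, the apoptosome, caspases and their inhibitors, and transcription factors. Of their 47 tested genes, 32 passed between KMS18 and MM.1s, 68.1% beside 65.3% of all tested genes. Between KMS18 and RPMI8226 28 passed, 59.6% beside 70.3%. Between MM.1s and RPMI8226 35 passed, 74.5% beside 69.1%.

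The balance of MCL1 to BCL2L1 followed from these orders. The ratio of their FPKM was 1.37 to 1.89 over the 4 KMS18 libraries, 0.722 to 1.35 in MM.1s and 0.537 to 1.012 in RPMI8226. It was 1.41 to 3.37 in the Mcl1 line. By FPKM, MCL1 thus exceeded BCL2L1 in each library of KMS18 and of the Mcl1 line. In MM.1s and RPMI8226 it did so only under CD28 shRNA.

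The ratio of MCL1 to BCL2 was 6.94 to 11.9 in MM.1s, 3.16 to 6.94 in KMS18, 3.18 to 4.34 in RPMI8226 and 6.66 to 16.04 in the Mcl1 line. The ratio of BCL2L1 to BCL2 was 5.14 to 15.4 in MM.1s, 3.14 to 8.09 in RPMI8226, 2.01 to 3.74 in KMS18 and 2.10 to 8.86 in the Mcl1 line. MCL1 exceeded BCL2L2 11.6-fold to 15.5-fold in RPMI8226, 32.6-fold to 64.8-fold in KMS18 and 36.2-fold to 42.3-fold in the Mcl1 line.

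The ratio of MCL1 to each other member was compared between pairs of backgrounds in 16 two-sided exact permutation tests of 4 against 4 libraries. Of these, 13 had the smallest p such a test can give, 0.0286, which is 0.0352 after Benjamini-Hochberg adjustment. The 13 include every test of the Mcl1 line against RPMI8226, where MCL1 was raised by design. They also include the tests of MCL1 to BCL2L2 with MM.1s, which rest on 0 to 2 reads of BCL2L2 a library. The 4 libraries of a background are 1 cell line, so the count does not measure spread between cultures. The tests that did not pass were MCL1 to BCL2L1 between MM.1s and RPMI8226 (exact adjusted p = 0.335), MCL1 to BCL2 between KMS18 and RPMI8226 (exact adjusted p = 0.371) and MCL1 to BCL2A1 between KMS18 and MM.1s (exact adjusted p = 0.261). These tests take no account of the shared vectors. Matched by vector, the ratio of MCL1 to BCL2L1 was higher in MM.1s than in RPMI8226 in 4 of 4 pairs, at 0.744 against 0.608 under Vec, 0.722 against 0.615 under Gapdh shRNA, 1.350 against 1.012 under CD28 shRNA and 0.773 against 0.537 under CD86 shRNA. The spread within each line in that test includes the difference between the vectors. With BCL2A1 at the detection limit, its 4 ratios mix MCL1 with whether a library had 0 or 2 BCL2A1 reads. KMS18 against RPMI8226 gave 1.07 as this log2 ratio and 0.75 for MCL1 alone. KMS18 against MM.1s gave -0.34 and -0.47.

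**Figure D2:**
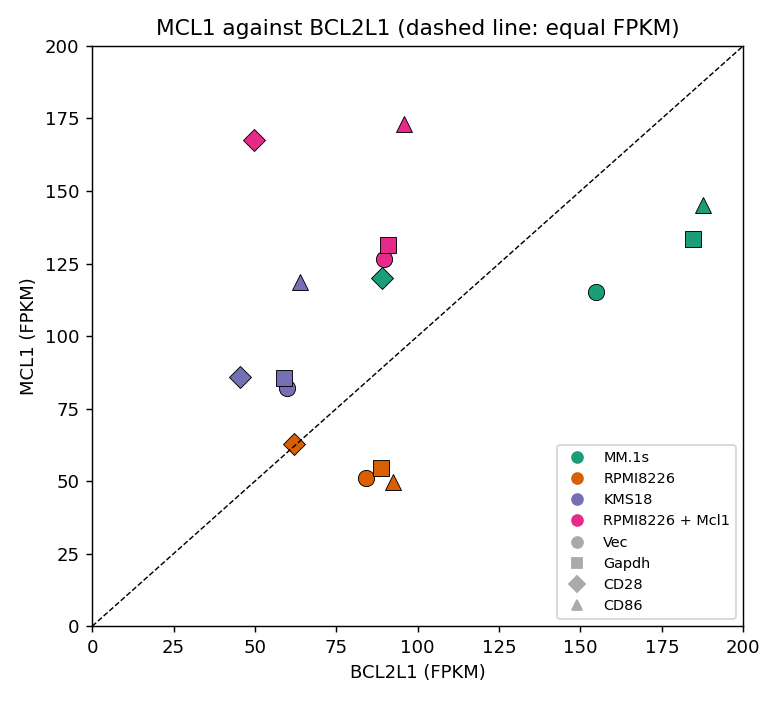
MCL1 against BCL2L1 in FPKM (linear axes) in the 16 libraries, coloured by background and shaped by vector or shRNA; the dashed line marks equal FPKM. KMS18 and the Mcl1 line lie above the line throughout, and MM.1s and RPMI8226 lie below it except for their CD28 shRNA libraries, at ratios of 1.35 and 1.012.

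In the Mcl1 line, MCL1 was the 1 of 4 tested members to pass against parental RPMI8226, where 34.4% of all tested genes passed. Its log2(FPKM + 1) was 1.43 higher (SE 0.09, limma adjusted p = 4.00e-05), a 2.70-fold difference that was seen in 4 of 4 vector-matched pairs. BCL2 differed by 0.15 (limma adjusted p = 0.180), BCL2L1 by -0.03 (limma adjusted p = 0.747) and BCL2L2 by -0.11 (limma adjusted p = 0.428). When limma's voom method was applied to the recovered reads, BCL2 passed as well, at 0.14 (adjusted p = 0.0470).

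Genes of the pathway lists also differed between the same lines, at a share near the 34.4% of all tested genes. Of the 9 tested effectors and BH3-only genes, 4 were higher and 1 lower in the Mcl1 line. PMAIP1, which encodes the MCL1-binding BH3-only protein NOXA, was higher by 0.89 (limma adjusted p = 0.000177) and BMF lower by -0.81 (limma adjusted p = 0.000571). BBC3 (PUMA), BID and BCL2L11 (BIM) were higher by 0.47, 0.28 and 0.20. The list's median was 0.16, against 0.03 over all tested genes.

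Of 15 transcription factors known to act on BCL2 family genes, 6 were higher and 2 lower in the Mcl1 line, with a list median of 0.06. NFKB2 (1.05), STAT5A (0.90), STAT5B (0.84) and NFKB1 (0.53) were among the higher, and FOXO3, an activator of BCL2L11, was lower by -0.75. Of the 14 apoptosome, caspase and inhibitor genes, 2 were higher and 1 lower, with BIRC3 higher by 1.39, BIRC5 by 0.20, and CASP8 lower by -0.23. Of the 2 tested pro-survival relatives, BCL2L12 was higher by 0.43. In all, 17 of the 47 tested genes of the 5 pathway lists passed, 36.2%, near the share over all tested genes. None of the 7 tested genes for MCL1 protein turnover passed. Markers also differed. Of 2 tested B cell markers, MS4A1 (CD20) was lower by -3.33 (limma adjusted p = 7.74e-06) and BCL6 had a value of 0.07, which did not pass. Of 5 myeloid markers 1 was tested, ITGAM, which was higher by 1.57. MS4A1 averaged 11.3 FPKM in RPMI8226 and 0.217 in the Mcl1 line, and ITGAM 0.0229 and 2.15. Each met the filter for testing only through the line where it was high, so the direction of its difference was set by the filter. Of 7 tested plasma cell markers 2 were higher, CD38 (0.70) and SDC1 (0.24), and 2 lower, MZB1 (-0.81) and TNFRSF17 (-0.49). The part of differences between sublines other than Mcl1 in these values was not tested.

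BCL2L1 was lower under CD28 shRNA, and the other tested members did not pass the threshold. BCL2L1 stood at 57.5%, 73.5% and 75.9% of Vec in MM.1s, RPMI8226 and KMS18 (69.0% ± 10.03, SD, n = 3). In the Mcl1 line the value was 55.6%. BCL2L1 was below both Vec and Gapdh shRNA in 4 of 4 backgrounds. Over the parental lines, with the line as a term, it fell by 0.54 on the log2 scale (SE 0.11, limma adjusted p = 0.0363). Of all tested genes 2.83% passed this comparison, 81 higher and 239 lower, and 1 of the 4 tested members did.

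The authors' deposited table gave a log2 change of -0.53 and a false discovery rate of 0.000862 for BCL2L1. These values come from the same series by the authors' own method, so they are not an independent test. The call was lost when any 1 line was left out: the limma adjusted p was 0.121 without MM.1s, 0.128 without RPMI8226 and 0.132 without KMS18. The log2 changes were then -0.41, -0.59 and -0.61, with fewer libraries in the fit. Without the filter on low values it was 0.0832. CD28 shRNA libraries were also the shallowest in each background, and the part of depth was not tested, although BCL2L1 had at least 634 reads in each. Of the 8 plasma cell markers 6 had a change below 0, with a median of -0.13, and none passed; their part was not tested either.

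MCL1 under CD28 shRNA was at 104%, 122% and 105% of Vec in the 3 lines (111% ± 10.3, SD, n = 3) and at 132% in the Mcl1 line. Its log2 change was 0.14 (SE 0.13, limma adjusted p = 0.595). BCL2 was at 110%, 129% and 87.1% of Vec, with a change of 0.10 (limma adjusted p = 0.671), and KMS18 was the line in which it was lower. The log2 change of BCL2L2 was -0.00237 (SE 0.14). Of the targets, CD28 changed by -0.47 (SE 0.10, limma adjusted p = 0.0295). CD86 was 0.71 higher (SE 0.24) under this hairpin and did not pass (limma adjusted p = 0.142).

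CD86 shRNA gave the lowest BCL2 level of each background. BCL2 stood at 77.5%, 74.9% and 65.9% of Vec in MM.1s, RPMI8226 and KMS18 (72.8% ± 6.06, SD, n = 3), and at 56.8% in the Mcl1 line. The 4 of 4 backgrounds were below Vec, yet the change of -0.43 (SE 0.11, unadjusted p = 0.00201) did not pass over all genes by limma (adjusted p = 0.118). None of the 4 tested members passed, against 0.627% of all tested genes.

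This value lay near the threshold. With voom on the recovered reads the adjusted p was 0.0303, and with the Mcl1 line added as a further background limma gave 0.0145. The authors' deposited table gave -0.49 with a false discovery rate of 0.00933, again from the same series. The plasma cell markers were also lower: 8 of 8 had a change below 0 under CD86 shRNA, with a median of -0.43 against 0.02 over all tested genes. SDC1 (CD138) fell by 1.11 (limma adjusted p = 0.0106) and MZB1 by 0.47 (limma adjusted p = 0.0171). Their part in the BCL2 value was not tested.

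MCL1 under CD86 shRNA was at 126% and 145% of Vec in MM.1s and KMS18 and at 137% in the Mcl1 line, but at 96.9% in RPMI8226. RPMI8226 was also the background where CD86 was lowered least, to 76.3% of Vec. Over the parental lines the change of CD86 itself, -0.62 (SE 0.24), did not pass (limma adjusted p = 0.315). BCL2 in RPMI8226, at 74.9% of Vec, lay between MM.1s (77.5%) and KMS18 (65.9%). Whether the level of CD86 bears on MCL1 or BCL2 was not tested. The mean change of MCL1, 0.27 (SE 0.13), did not pass (limma adjusted p = 0.399). BCL2L1 was at 121%, 110% and 107% of Vec, a change of 0.17 (limma adjusted p = 0.578).

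Gapdh shRNA gave the background of a hairpin against neither target. None of the 4 members passed, and 0% of all tested genes did by limma or by voom, while 402 genes had an unadjusted limma p below 0.05. GAPDH itself, the target of this hairpin, changed by -1.89 (SE 0.37) and did not pass (limma adjusted p = 0.99985). The test thus missed a known change, and the count of 0% cannot show that the hairpin had no effect. MCL1 was at 109% ± 6.01 of Vec, BCL2L1 at 108% ± 10.6 and BCL2 at 96.2% ± 9.50 (SD, n = 3). The smallest unadjusted limma p among the members was 0.365.

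**Figure D3:**
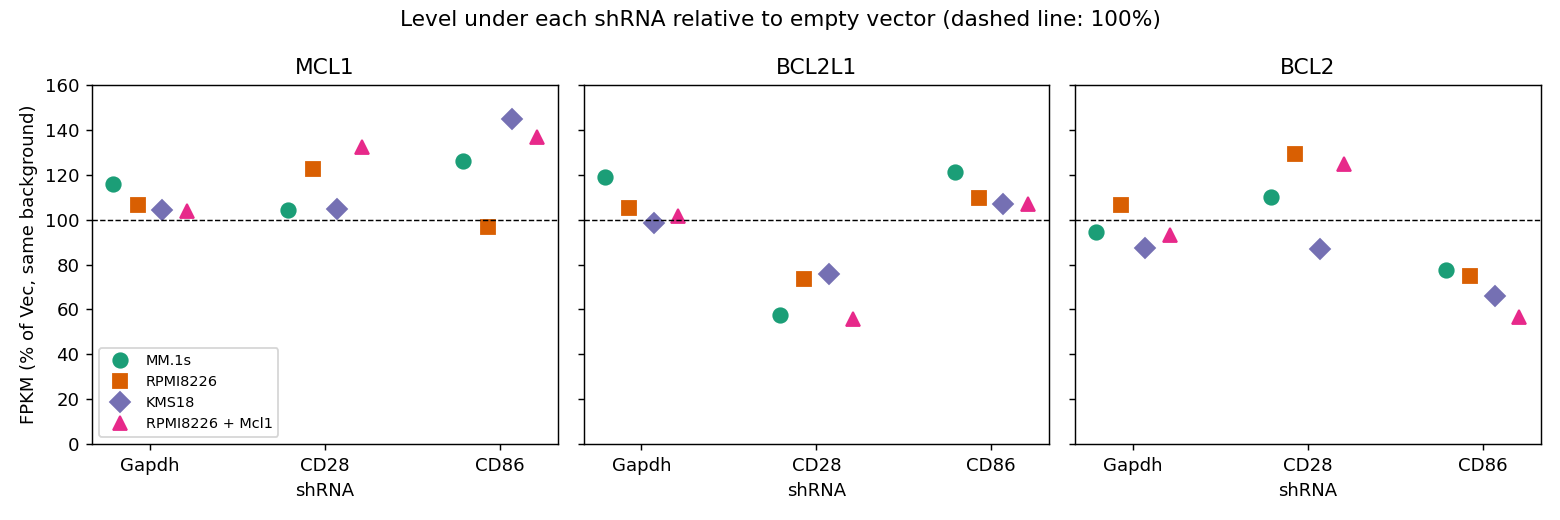
FPKM under each shRNA as a percentage of the Vec library of the same background (linear axis from 0), for MCL1, BCL2L1 and BCL2, with 1 point for each background and a dashed line at 100%. BCL2L1 lies at 55.6% to 75.9% under CD28 shRNA and BCL2 at 56.8% to 77.5% under CD86 shRNA, while MCL1 lies between 96.9% and 145% throughout.

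Set directly against each other, the 2 hairpins differed at BCL2L1 and BCL2, in opposite directions. BCL2L1 was higher under CD86 than under CD28 shRNA by 0.71 (SE 0.11, limma adjusted p = 0.00553), and BCL2 was lower by -0.53 (SE 0.11, limma adjusted p = 0.0143). Both held in 4 of 4 backgrounds. The 2 of 4 tested members stand beside 9.51% of all tested genes. The BCL2L1 call was kept when any 1 line was left out, whereas BCL2 then gave limma adjusted p of 0.1004 without MM.1s, 0.111 without RPMI8226 and 0.0685 without KMS18, at log2 differences of -0.56, -0.43 and -0.61.

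The ratio of BCL2L1 to BCL2 differed from that of Vec in opposite directions under the 2 hairpins. Under CD28 shRNA it was 0.522, 0.568, 0.871 and 0.446 times the Vec ratio in MM.1s, RPMI8226, KMS18 and the Mcl1 line. Under CD86 shRNA it was 1.56, 1.46, 1.62 and 1.88 times the Vec ratio. The ratio of MCL1 to BCL2L1 under CD28 shRNA was 1.81, 1.66, 1.38 and 2.38 times that of Vec. The ratio of MCL1 to BCL2 under CD86 shRNA was 1.63, 1.29, 2.19 and 2.41 times that of Vec.

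None of the 12 tests of an MCL1 ratio under a shRNA passed, since an exact two-sided sign-flip test over 3 lines cannot go below p = 0.25. Over all 16 libraries the log2 levels of BCL2L1 and BCL2 had a Pearson r of -0.70, and of -0.65 after each background's mean was subtracted. These libraries share lines and vectors, so the values are descriptions.

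MCL1 made up 33.1% of the members' summed FPKM in RPMI8226 with Vec, 40.3% in MM.1s, 48.2% in KMS18 and 53.0% in the Mcl1 line. CD28 shRNA libraries had a larger MCL1 share than Vec in each background: 42.1%, 53.0%, 54.9% and 68.4% in the same order. BCL2L1 was 20.3% of the sum in the Mcl1 line with CD28 shRNA, its lowest share in the 16 libraries. The BCL2 share ranged from 3.53% in MM.1s with CD86 shRNA to 15.2% in KMS18 with Vec.

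**Figure D4:**
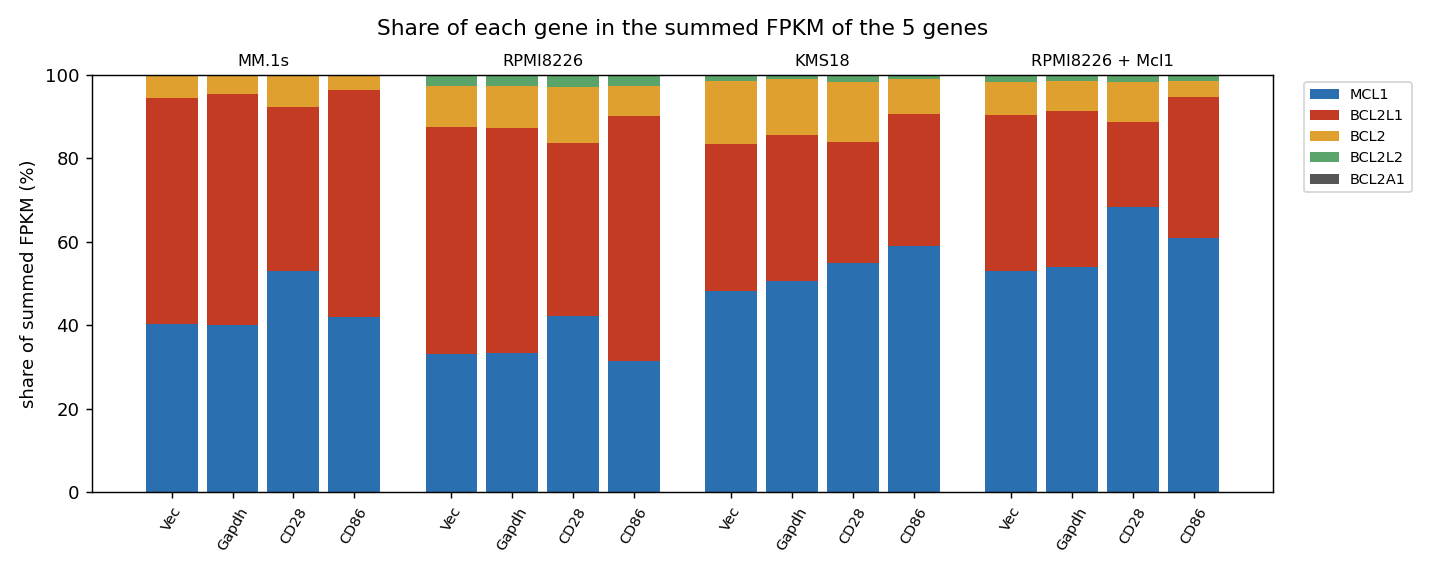
Share of each of the 5 genes in their summed FPKM (%, stacked bars) in the 16 libraries, grouped by background. MCL1 takes 31.5% to 42.1% in RPMI8226 and 53.0% to 68.4% in the Mcl1 line, and the BCL2L1 segment is the smallest of each background under CD28 shRNA.

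The response to each hairpin was then compared between the Mcl1 line and the 3 parental lines through an interaction term. The Mcl1 line has 1 library for each hairpin, so its spread is taken from the other lines. No member passed for CD28, CD86 or Gapdh shRNA, against 0.00881%, 0% and 0% of all tested genes. By limma, 371, 293 and 213 genes had an unadjusted p below 0.05, and voom called 0 genes in each. The interaction of BCL2L1 with CD28 shRNA was -0.30 (SE 0.23) and that of BCL2 with CD86 shRNA -0.33 (SE 0.22), so differences of this size were not detectable with these libraries.

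Of the 47 tested genes in the 5 pathway lists, 4 passed under CD28 shRNA, 8.51%, beside 2.83% of all tested genes. Of 2 tested pro-survival relatives, BCL2L12 was higher by 0.49 (limma adjusted p = 0.0206). Of 9 tested effectors and BH3-only genes, 1 was higher, BID, by 0.53 (limma adjusted p = 0.0496), with a list median of 0.11. BID protein is cut by caspase 8 and links death receptors to mitochondria.

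CYCS, which encodes the cytochrome c released from mitochondria, was the 1 lower gene of 14 in the apoptosome and caspase list, at -0.40 (limma adjusted p = 0.0461), with a list median of -0.17. MYC was the 1 lower gene of 15 transcription factors, at -0.54 (limma adjusted p = 0.0496), and the list median was -0.06. None of 7 genes for MCL1 protein turnover passed, with a median of 0.02. The median over all tested genes was -0.00303.

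Under CD86 shRNA none of the genes of these 5 lists passed, and the list medians ran from -0.11 for the transcription factors to 0.25 for the 2 relatives, against 0.02 over all tested genes. Between CD86 and CD28 shRNA, the BH3-only genes BCL2L11 (0.52) and BAD (0.30) were higher under CD86 shRNA, and BID (-0.46) was lower. CYCS (0.39) and STAT5B (0.58) were higher, and XIAP (-0.52), an inhibitor of caspases, and BCL2L12 (-0.33) were lower. Of the 47 tested list genes 8 passed, 17.0%, beside 9.51% of all tested genes. Markers differed in that comparison too: 3 of 8 plasma cell markers were lower, SDC1 (-1.25), CD38 (-1.04) and MZB1 (-0.47), and 7 of 8 lay below 0, with a median of -0.34 against 0.03 over all tested genes. The 1 tested T cell marker, CD3E, was lower by -1.24. The part of the markers in the BCL2L1 and BCL2 differences was not tested.

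Small RNAs lower transcripts by pairing of guide bases 2 to 8 with sites in 3′ UTRs, so the 3′ UTRs were searched for the 7-base words whose carriers were lowest under each hairpin. These words were ranked on the same values as the changes, after those were seen, and the hairpin sequences were not used here. UTRs were those of GENCODE release 29 on GRCh38, searched on the transcript strand. Under CD28 shRNA the first words were CTGTGTT and TGTGTTA, which overlap, and under CD86 shRNA TCAAGCA and TTCAAGC, which overlap as well.

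CTGTGTT was present in 24.6% of the 3′ UTRs of 10182 tested genes. Its carriers had a median change of -0.05 against 0.01 for the other genes, and 5.36% of them fell past the threshold against 1.12%. TCAAGCA was present in 14.0%, and 2.67% of its carriers fell under CD86 shRNA against 0.297% of the others. The words were picked for the lowest carriers in these same comparisons, so these differences cannot serve as a test. In the Mcl1 line, whose libraries were not used to rank the words, the median changes were -0.05 against 0 for CD28 shRNA and -0.03 against 0.01 for CD86 shRNA. This line derives from RPMI8226, whose libraries were used in the ranking. For Gapdh shRNA the first word gave medians of -0.02 and -0.01.

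The sites in the members are shown because BCL2 is the 1 member that holds the CD86 words, while 4 members hold the CD28 word. BCL2 also has the longest 3′ UTR of the members, at 5279 bases. MCL1 has 2824, BCL2L2 2794, BCL2L1 1497 and BCL2A1 267 bases. A longer 3′ UTR has more room for any word, and the part of length was not tested. Each line gives the gene, the hairpin and the 3′ UTR site 5′ to 3′ on the transcript strand, with the matching bases in capitals and 10 bases on each side.
MCL1, CD28, chr1:150575419-150575446, minus strand: aagaggtgagCTGTGTTAaacctcagag
BCL2, CD28, chr18:63125212-63125238, minus strand: acttacctctCTGTGTTcagatgtggc
BCL2L1, CD28, chr20:31664459-31664485, minus strand: cagtaataaaCTGTGTTtactcagtga
BCL2L2, CD28, chr14:23310068-23310094, plus strand: ctggcctatgCTGTGTTgtgggctttg
BCL2, CD86, chr18:63124348-63124374, minus strand: tggtataaatTTCAAGCtggatatgtc
BCL2, CD86, chr18:63124006-63124033, minus strand: gaaaaataacTTCAAGCAaacatcctat
MCL1 holds the longest CD28 match, 8 bases, and its change was 0.14. BCL2L1 holds 7 bases, 1474 bases into a 3′ UTR of 1497, and it is the member that fell. BCL2 and BCL2L2 also hold the CD28 word, and their changes were 0.10 and -0.00237. BCL2 holds both CD86 words, and it had the most negative log2 change of the 4 tested members under CD86 shRNA. A match is a description of these letters, and the part of any site in the BCL2L1 or BCL2 values was not tested.

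**Figure D5:**
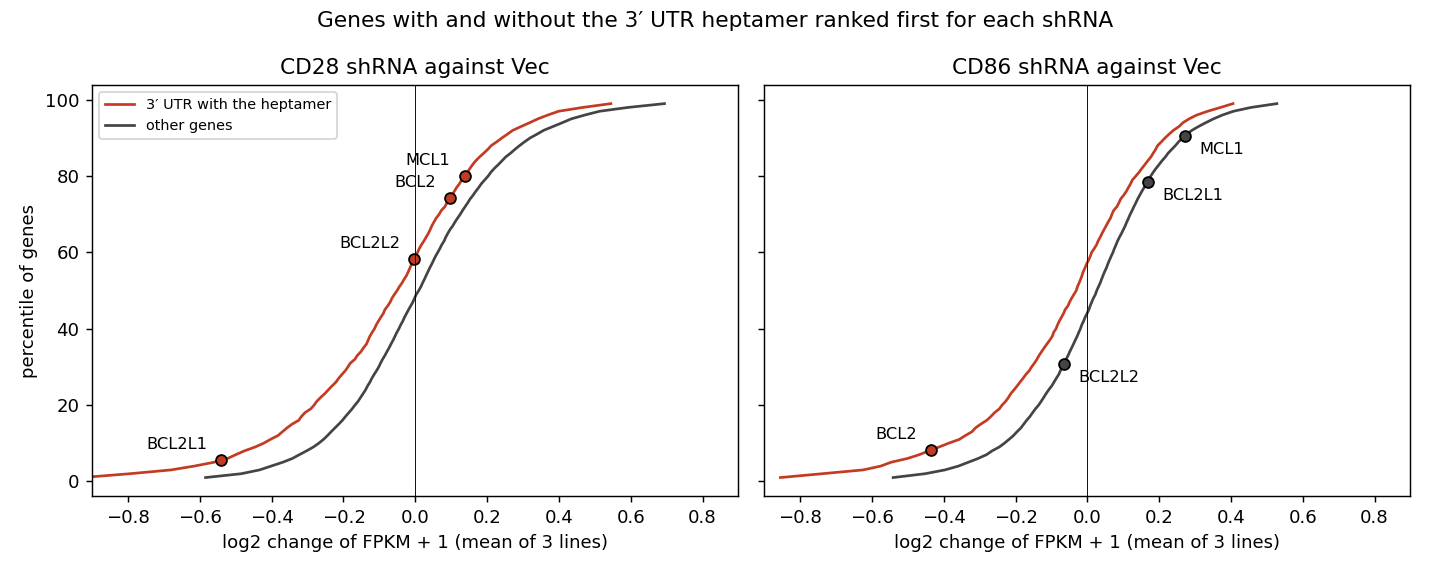
Percentile of genes (linear axis) against the log2 change of FPKM + 1 over 3 lines, for genes with (red) and without (grey) the first-ranked 3′ UTR word of each hairpin; points place the members on the curve of their own group. The red curves lie left of the grey ones, at a median of -0.05 against 0.01 for CD28 shRNA. Of the red members in the CD28 panel, BCL2L1 (-0.54) lies far left, but MCL1 (0.14), BCL2 (0.10) and BCL2L2 (-0.00237) do not. In the CD86 panel the 1 red member, BCL2 (-0.43), lies far left.

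Genes whose log2 levels ran most like each member over the 16 libraries were named by Pearson r. For BCL2L1 these were MOB3A (0.97), PLEKHA2 (0.94) and ANKFY1 (0.94), and with background means subtracted DPYSL2 (0.97), SBDS (0.97) and SGTA (0.96). For MCL1 they were SOCS6 (0.88), RAVER2 (0.88) and CD276 (0.88), and within backgrounds SEC14L1 (0.91), EML6 (0.88) and SPOPL (0.86). For BCL2 they were PRR13 (0.90), EIF2S1 (0.88) and LCP1 (0.88), and within backgrounds ERI3 (0.93), PIP5KL1 (0.90) and C9orf78 (0.90). BCL2L2 ran with GSTT1, SLC17A9 and AGPAT2 (0.99, 0.99 and 0.98), genes that follow the same split of the backgrounds. These values share libraries and lines and carry no test.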

How the data were processed

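mRNA libraries of 16 samples were summarised by the authors as FPKM per gene in 1 deposited table; the submitters' processing notes name TopHat2 2.0.13, Picard, R 3.2.2, edgeR 3.12.1 and the build hg19. The table also holds the authors' deposited log2 fold changes, p-values and false discovery rates for 3 contrasts. FPKM times exon length gave whole reads for 100% of values (tolerance 0.02 reads); 80.3% to 83.2% of read numbers from 2 to 20 were even, so both mates of a pair may have been counted. Reads in genes per library set the precision. limma 3.58.1 in R 4.3.3, with trend, was fitted to log2(FPKM + 1) of the genes whose mean reached 1 FPKM, with the line or the shRNA as a term. Same-line libraries deviated together (r 0.87 to 0.95 over 18 pairs), so the line pairs them. Exact permutation tests served for ratios. Alternatives were another pseudocount, no filter, rescaling, voom on the reads, no block, lines left out, 16 libraries and a joint control. The fit was tested on simulated data. The members, lists and rules were chosen with earlier results of these data known. Named genes were the members, the targets, up to 6 list genes past the threshold for each list and comparison, and the 3 most alike genes; between the parental lines list genes are given as counts, and some list genes that passed elsewhere are not reported here. The search for 3′ UTR words was added later. Nothing says that replicates were separate cultures beyond the lines.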

Additional observations from a re-analysis of the deposited data

How the results depend on the processing

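The hairpin calls rest on the term for the line: with no replicate block, 0 members passed for CD28 shRNA against Vec and 0 for CD86 against CD28 shRNA (1 and 2 with the block), and 0 of all genes passed in either. The pairing by line changed no other count of members. With no filter on low values 0 members passed for CD28 shRNA against Vec, where more genes were tested (18152 against 11316). The same setting gave 5 members against 4 between KMS18 and RPMI8226, with BCL2A1 lower at a limma adjusted p of 0.0300, on 0 reads against 0 or 2 a library. With 1 line left out, 0 members passed for CD28 shRNA against Vec and 1 for CD86 against CD28 shRNA, each with fewer libraries. For CD86 shRNA against Vec 1 member, BCL2, passed with voom and 1 with all 16 libraries. For the Mcl1 line against RPMI8226 voom gave 2 members. The cause of these 2 changes under voom was not tested. Genes called over all genes also moved by over 1.5 times: for CD28 shRNA 559 with voom and 1036 with 16 libraries against 320, for CD86 shRNA 212 and 282 against 71, and 2122 with 16 libraries against 1076 between the hairpins. With the joint control they were 583 and 205 for CD28 and CD86 shRNA. With no filter they were 147, 30 and 605 for CD28 shRNA, CD86 shRNA and their contrast, and with 1 line left out 33 to 132, 0 to 9 and 137 to 525. With no filter the interactions called 113, 115 and 90 genes for CD28, CD86 and Gapdh shRNA, and with a pseudocount of 0.1 6, 4 and 1. With no replicate block 2459 genes passed between the Mcl1 line and RPMI8226, against 3793. Ratios of MCL1 between backgrounds passed in 11 of 16 tests with a pseudocount of 0.1, against 13. Of 380 values of members under alternatives, 349 kept direction and side of the threshold, 10 fell below it, 3 passed it and 18 changed sign, all of the latter at a limma adjusted p of at least 0.342. For BCL2L2 the values that changed sign were 0.0101 (rescaled), 0.00277 (voom), 0.0461 (16 libraries), 0.0453 (joint control) and 0.0616 (without MM.1s) under CD28 shRNA, 0.00426 (16 libraries) and 0.0358 (without KMS18) under CD86 shRNA, 0.02002 (without KMS18) under Gapdh shRNA, and 0.14 (pseudocount 0.1) and 0.0877 (without KMS18) between CD86 and CD28 shRNA. In the Gapdh interaction leaving out 1 line gave -0.153 (KMS18) to 0.0369 (RPMI8226) for BCL2L2, with 0.00286 without MM.1s, and -0.102 (KMS18) to 0.0317 (RPMI8226) for BCL2. BCL2 gave -0.0299 under CD28 shRNA without RPMI8226 and 0.0035 under Gapdh shRNA without KMS18. Between MM.1s and RPMI8226 BCL2 ran from -0.0868 (without CD86 shRNA) to 0.00125 (without CD28 shRNA). MCL1 gave -0.0299 between CD86 and CD28 shRNA without KMS18. Between the Mcl1 line and RPMI8226 BCL2L1 ran from -0.0739 (without Vec) to 0.0588 (without CD28 shRNA). Depth limits BCL2A1, and BCL2L2 in MM.1s, to statements of detection.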
